A study of Homo sapiens with 2 samples.

Results

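Read-through genes are annotated genes whose transcript begins in a gene and runs on into its neighbour. Here they were the rows of the deposited table whose symbol holds a single hyphen and whose parts on either side are symbols in the same table. The rule found 112 such genes among 25436 symbols, with 222 different parent genes, and it used no measured value. MUTED and RAB4B were each a parent of 2 read-through genes. Each of the 112 had a locus that overlapped the loci of both parents, and 74 had parents less than 10000 bases apart. The median gap between parents was 6485 bases, and the longest was 273723 bases, at ZNF664-FAM101A. POC1B-GALNT4 was the only pair whose parents overlapped each other.

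The lines compared, HuES53 and HuES64, are diploid human embryonic stem cells. Both were derived after in vitro fertilization, were undifferentiated and below passage 20, and served as controls in a study of haploid embryonic stem cells. No treatment or genetic change is given for either line. Poly(A) RNA from 1 library per line was sequenced. With no replicates no test was possible, and each difference describes these 2 libraries. Levels are in FPKM, fragments scaled for transcript length and for the size of the library. All 5 markers of pluripotent cells checked were high, with medians of 430 FPKM in HuES53 and 376 in HuES64. The 5 fibroblast markers checked summed to 144 and 180 FPKM. COL1A1 made most of that sum, at 138 and 168 FPKM, COL3A1 stood at 3.08 and 8.00, and the lowest, DCN, at 0.199 and 0.438. The part of such cells in the results was not tested.

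Transcription of a human gene normally ends after a poly(A) signal is cleaved, and the polymerase is then released. When the signal is passed over, transcription can enter the next gene on the same strand, and splicing can join exons of both genes in a single RNA. Some such RNAs can encode a protein with parts of both parents, whereas others carry an early stop codon and are open to nonsense-mediated decay. Because a read-through RNA is built from exons of its parents, often only fragments across the joining splice junction can belong to it alone.

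In the GENCODE annotation, 101 of the 112 genes were found by a current or former symbol, and each of the 101 had at least 1 transcript tagged as read-through. Of the 105 with both parents matched, all 105 had parents on the same strand. By the bounds of the GENCODE genes, the first-named parent began upstream in 103 of them, the exceptions being C8orf44-SGK3 and CCL14-CCL15. Neither exception was itself matched in GENCODE. In the deposited table's own loci, C8orf44 and C8orf44-SGK3 both started at 67579787 and SGK3 at 67624653. RefSeq matched 110 of the 112 and classed 64 as protein coding and 46 as long non-coding RNA. GENCODE classed 96 of its 101 as protein coding and 5 as processed transcripts, so the 2 annotations often disagree. HNRNPUL2-BSCL2, EEF1E1-MUTED and MUTED-TXNDC5, for example, are non-coding in RefSeq and protein coding in GENCODE. Start sites of all 3 genes were given by RefSeq for 64 read-through genes. The start was the very same base as that of the first parent in 27 and less than 300 bases away in 48. PALM2-AKAP2 was left out of these start sites, because RefSeq holds it and its parents as a single merged gene.

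Sequence overlap with the parents was nearly complete in most read-through genes, but not in all. In 95 read-through genes whose exons could be compared in GENCODE, a median of 97.7% of the exonic bases also lay in exons of a parent. In 35 of the 95, every exonic base did, and in 66 more than 90% did. The lowest share was 28.0%, at ZNF670-ZNF695. The bases found in no parent exon had a median of 22 in the 23 of these genes that reached 1 FPKM in both lines, and of 19 in the 32 that stayed under 0.001 FPKM in both. The ranges were wide and overlapped, from 0 to 3430 and from 0 to 2924 bases. In the other 40 genes the median was 126.5 bases and the range from 0 to 6280.

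A direct splice from an exon of the first parent to an exon of the second was found for 81 read-through genes. In 62 of them, the joined exon ends were both also used by a parent. The splices of 7 genes on which the results turn are shown, as 15 bases of the first parent in lower case followed by 15 bases of the second parent in capitals, from GENCODE transcripts on GRCh38:
RPL36A-HNRNPH2: attttccggaaaaagCTACACCAAAATTGC
BCL2L2-PABPN1: agcagtgggggctggGAGCTGGAAGCTATC
HNRNPUL2-BSCL2: caatacaatcgggatGGACCCTCCATTTTC
NME1-NME2: catacaagttggcagGACCATGGCCAACCT
CCDC169-SOHLH2: ttggaccctttaaagGCAAAAATAGACATC
EEF1E1-MUTED: cttcatcgctttataATCTTGGAGAAATTC
MUTED-TXNDC5: caggaacgaaaaaagGTGTGGACACTGCCA

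The last base of the first exon and the first base of the second bound each intron. These GRCh38 positions cannot be set against the deposited loci given elsewhere, which follow other coordinates. On the plus strand these are chrX:101391822-101411936 for RPL36A-HNRNPH2, chr14:23308199-23322181 for BCL2L2-PABPN1 and chr17:51161272-51166827 for NME1-NME2. On the minus strand they are chr11:62707324-62715500 for HNRNPUL2-BSCL2, chr13:36202093-36227348 for CCDC169-SOHLH2, chr6:8062616-8090186 for EEF1E1-MUTED and chr6:7904723-8026367 for MUTED-TXNDC5. All 7 splices lay within the annotated coding sequence of the read-through transcript.

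What the splice does to the coding sequence differed between these genes. The BCL2L2-PABPN1 transcript kept 74.6% of the coding bases of BCL2L2 and 61.8% of those of PABPN1 in frame, against the longest coding transcript of each parent. NME1-NME2 kept 78.3% of NME1 and the whole coding sequence of NME2. CCDC169-SOHLH2 kept 36.5% of CCDC169 and 96.2% of SOHLH2. RPL36A-HNRNPH2, HNRNPUL2-BSCL2, EEF1E1-MUTED and MUTED-TXNDC5 kept none of the second parent in frame, and the last 3 of these transcripts are annotated as targets of nonsense-mediated decay. Over 74 read-through genes compared in this way, 23 kept more than 50% of both parents in frame and 31 kept none of the second parent.

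Most read-through genes were low where their parents were not. At least 1 FPKM was reached by 38 of 112 in HuES53 and 36 in HuES64, that is 33.9% and 32.1%, against 54.3% and 53.4% of all other genes. Of the first parents, 89 reached it in HuES53 and 86 in HuES64, and of the second parents 87 and 81. The read-through median was 0.212 FPKM in HuES53 and 0.139 in HuES64, below the 1.70 and 1.53 of all other genes. Their first parents had medians of 7.09 and 7.59 FPKM, and their second parents 7.45 and 7.54. A total of 27 read-through genes reached 1 FPKM in both lines, 11 in HuES53 alone, 9 in HuES64 alone and 65 in neither.

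Low read-through genes were mostly given a tiny value rather than 0. Values above 0 but under 0.001 FPKM were listed for 41 read-through genes in HuES53 and 41 in HuES64, or 36.6% in each. Among the other 25324 genes such values made up 0.426% in HuES53 and 0.474% in HuES64. The smallest were 4.24e-198 FPKM in HuES53, for ZFP91-CNTF, and 2.03e-225 in HuES64, for INMT-FAM188B. For scale, 345 olfactory receptor genes, whose loci span less than 1100 bases, had no value above 0 lower than 0.0619 FPKM in HuES53 and 0.0449 in HuES64. All of the tiny values outside the read-through genes, 108 in HuES53 and 120 in HuES64, belonged to genes whose locus overlapped another gene. They made up 1.52% and 1.69% of the 7102 other genes with such an overlap, which every read-through gene also has. None of the 18222 other genes free of overlap had one. Values under 0.001 FPKM, 0 included, are called near zero below, and no fold is given for them.

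**Figure D1:**
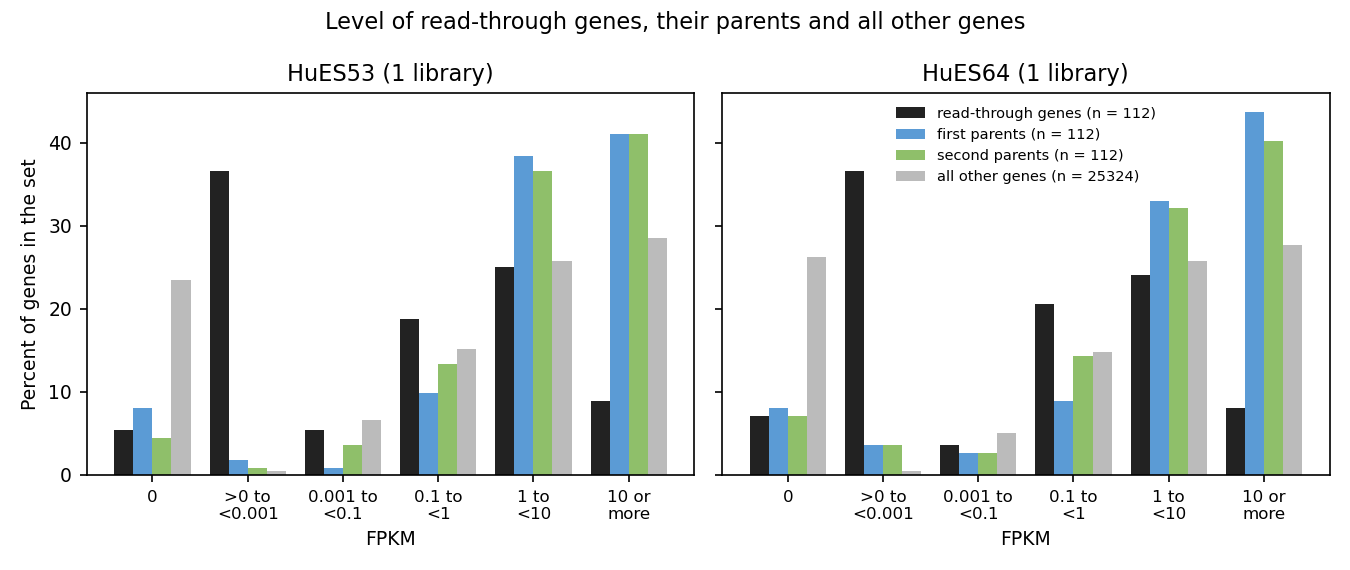
Percent of genes (vertical axis) in 6 classes of FPKM (horizontal axis) in each line, for 112 read-through genes, their first-named and second-named parents and all other genes, the parents included. The class above 0 and under 0.001 FPKM holds 36.6% of read-through genes in each line and 0.426% and 0.474% of all other genes.

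A read-through gene could be near zero between highly transcribed parents. Of 64 whose parents were both at 1 FPKM or more in both lines, 18 also reached 1 FPKM in both lines themselves and 19 were near zero in both. Among the 19, ATP5J2-PTCD1 had values of 1.32e-27 FPKM in HuES53 and 5.92e-05 in HuES64. Its parent ATP5J2, a subunit of ATP synthase, reached 534 and 757 FPKM, and PTCD1, a mitochondrial RNA-binding protein, 6.37 and 8.46. RPL17-C18ORF32 was listed at 2.77e-08 and 2.54e-05 FPKM. RPL17, a protein of the large ribosomal subunit, reached 320 and 508 FPKM, and C18orf32 30.4 and 33.4. Both were chosen after their values were seen. In all, 40 read-through genes were near zero in both lines, 4 of them at 0 in both: ARHGAP19-SLIT1, HOXA10-HOXA9, GIMAP1-GIMAP5 and MAGEA10-MAGEA5.

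The level of a read-through gene followed its parents only loosely. Across the 112 genes, Spearman's rho of the read-through level with that of its lower parent was 0.31 in HuES53 and 0.27 in HuES64. With the higher parent it was 0.22 and 0.27, and with the gap between the parents 0.06 and 0.03. The points of each rho share a library, and exons shared between a read-through gene and its parents tie their estimates together. Between the lines, rho of the read-through levels was 0.78. By RefSeq class, 24 of 64 coding read-through genes reached 1 FPKM in HuES53 and 20 in HuES64, and 14 and 16 of 46 non-coding ones.

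Few read-through genes outranked both parents. Below both parents in both lines stood 64 of 112. Above both parents in HuES53 stood 7, and in HuES64 6, and 5 were above both in both lines: BCL2L2-PABPN1, RPL36A-HNRNPH2, CHURC1-FNTB, ISY1-RAB43 and GPR75-ASB3. Of the summed FPKM of a read-through gene and its parents, the read-through gene held at least 10% in 23 of 108 sums above 0 in HuES53 and in 19 of 109 in HuES64. Among read-through genes at 1 FPKM or more, the highest share was 79.1% in HuES53 and 99.999% in HuES64. Parents could thus be nearly absent beside a read-through gene. Over the genes with all 3 values above 0, the median log2 ratio to the lower parent was -2.56 in HuES53 and -3.61 in HuES64. It depended on the low genes: among those averaging 1 FPKM or more it was 0.0344 and -0.0770, and with a pseudocount of 1 FPKM over all genes -1.27 and -1.29.

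BCL2L2-PABPN1 had the highest mean level. It joins BCL2L2, a survival protein of the BCL2 family, to PABPN1, the nuclear poly(A)-binding protein, over chromosome 14, 23775971 to 23795394 in the table's own coordinates. It reached 54.7 FPKM in HuES53 and 65.5 in HuES64. BCL2L2 stood at 8.30 and 8.49 FPKM, and PABPN1 at 32.2 and 39.0. The read-through gene thus held 57.4% of the summed FPKM in HuES53 and 58.0% in HuES64, and all 3 genes kept the same order in both lines. All of its exonic bases lie in exons of its parents.

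RPL36A-HNRNPH2 was next, with 49.3 FPKM in HuES53 and 45.7 in HuES64. It joins RPL36A, a protein of the large ribosomal subunit, to HNRNPH2, an RNA-binding protein of the hnRNP family, on chromosome X, 100645878 to 100669128. Its own level was close in the lines, whereas the parents moved apart. RPL36A reached 2.64 FPKM in HuES53 and 19.9 in HuES64, a log2 difference of -2.52 with a pseudocount of 1 FPKM, the largest downward one among the parents at least 2-fold different. HNRNPH2 stood at 10.4 and 4.78 FPKM. RPL36A and the read-through gene together made 51.9 and 65.6 FPKM, and the read-through gene held 79.1% of the summed FPKM of the locus in HuES53 and 65.0% in HuES64. RPL36A has copies elsewhere in the genome, so its level is uncertain.

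The other 3 genes above both parents were lower. CHURC1-FNTB joins a zinc finger gene to the beta subunit of protein farnesyltransferase, and stood at 13.4 and 11.3 FPKM. Its parent CHURC1 stood at 7.08 and 11.2 FPKM, in HuES64 almost level with the read-through gene, and FNTB at 1.47 and 0.731. ISY1-RAB43, of the splicing factor ISY1 and the small GTPase RAB43, stood at 9.51 and 11.6 FPKM, against 3.96 and 5.49 for ISY1 and 8.18 and 4.52 for RAB43. GPR75-ASB3, of a G-protein-coupled receptor and an ankyrin-repeat protein, stood at 12.1 and 8.76 FPKM. GPR75 was nearly silent, at 0.464 and 0.233 FPKM, and ASB3 stood at 7.37 and 5.86.

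**Figure D2:**
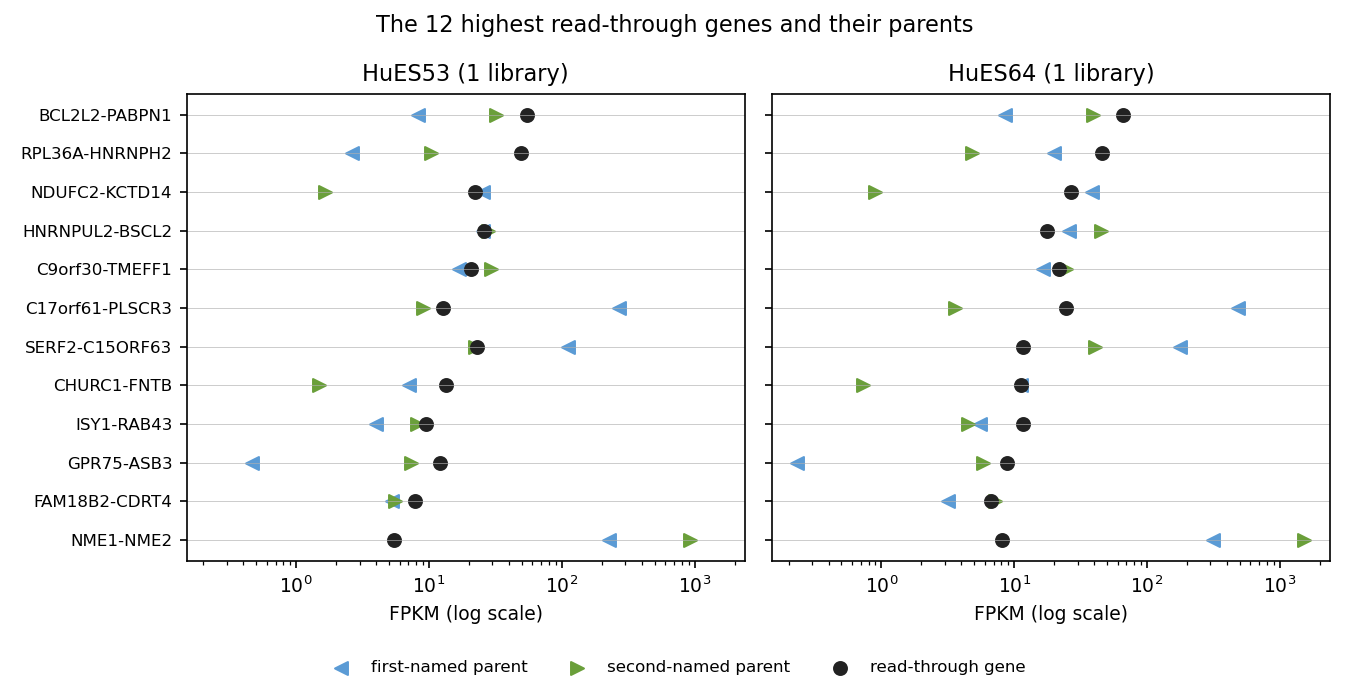
FPKM on a log scale (horizontal axis) of the 12 read-through genes with the highest mean (vertical axis), with the first-named and second-named parent, in HuES53 (left) and HuES64 (right), 1 library each. The read-through gene lies to the right of both parents in both lines in 5 of the rows, though by very little at CHURC1-FNTB in HuES64, and at NME1-NME2 it lies far to the left of both.

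Among the remaining 7 of the 12 highest, the read-through level was close to that of a parent in several. NDUFC2-KCTD14, which starts in a subunit gene of respiratory complex I, stood at 22.1 and 26.7 FPKM, below NDUFC2 at 25.4 and 38.6 and above KCTD14 at 1.66 and 0.890. C9orf30-TMEFF1 stood at 20.9 and 21.7 FPKM, between C9orf30 at 16.7 and 16.5 and the membrane protein gene TMEFF1 at 29.0 and 24.6. FAM18B2-CDRT4 stood at 7.87 and 6.70 FPKM, FAM18B2 at 5.26 and 3.16, and CDRT4 at 5.57 and 7.23. In these 3 the levels of the lines lay close.

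HNRNPUL2-BSCL2 and SERF2-C15ORF63 were higher in HuES53, against their second parents. HNRNPUL2-BSCL2 reached 25.7 FPKM in HuES53 and 17.5 in HuES64, while BSCL2, the lipid droplet protein seipin, went from 27.7 to 45.0 FPKM. HNRNPUL2 itself was level at 25.5 and 25.8 FPKM. SERF2-C15ORF63 stood at 22.9 and 11.7 FPKM, while SERF2 stood at 111 and 176 and C15orf63 at 22.0 and 40.8. Neither read-through gene reached a 2-fold difference, with log2 differences of 0.53 and 0.91, but SERF2-C15ORF63 did so with TPM scaling (1.16).

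C17orf61-PLSCR3 and NME1-NME2 were minor products beside an abundant parent. C17orf61-PLSCR3 reached 12.8 FPKM in HuES53 and 24.6 in HuES64, which was 4.36% and 4.77% of the summed FPKM. C17orf61 stood at 272 and 487 FPKM, and PLSCR3, a phospholipid scramblase, at 8.98 and 3.56. NME1-NME2 joins the genes of 2 nucleoside diphosphate kinases, and stood at 5.46 and 8.15 FPKM. NME1 stood at 228 and 315 FPKM and NME2 at 918 and 1529, so the read-through gene held only 0.474% and 0.440% of the sum. The 2 parents are close copies of each other, so how fragments were divided between them is uncertain.

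Differences between the lines were taken as log2(FPKM + 1) in HuES53 minus HuES64, for genes averaging at least 1 FPKM. In whole cultures, fewer cells with an RNA and less of it per cell cannot be told apart. Of the 112 read-through genes 41 passed this filter. Their median difference was 0.04, against 0.03 for all 13790 genes that passed. An excess of 2-fold or more was found for 4 read-through genes in HuES53 and for 4 in HuES64, sizes passed by 2.15% and 1.7% of all genes. TPM scaling, which moved the median of all genes to 0.25, gave 10 and 5 of 47, and upper quartile scaling 6 and 3 of 41. The share of all genes 2-fold different was then 6.66% and 4.10%. Together the 8 make 19.5% of the 41, against 3.86% of all genes and 4.65% of the 172 parents that passed. At a mean from 1 to under 5 FPKM, 7 of 27 read-through genes were 2-fold different, against 5.13% of all genes with such a mean. At a mean of 5 FPKM or more, 1 of 14 was, against 3.31%. All 8 were under 1 FPKM in their lower line and so passed through the line in which they were high. Of the 27 read-through genes at 1 FPKM or more in both lines, none was 2-fold different, and their differences ran from -0.89 to 0.91. The share over all genes at that level in both lines was not computed, so this count has no background beside it. With no filter on levels, 13 of 112, or 11.6%, were at least 2-fold different, against 2.32% of all genes.

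**Figure D3:**
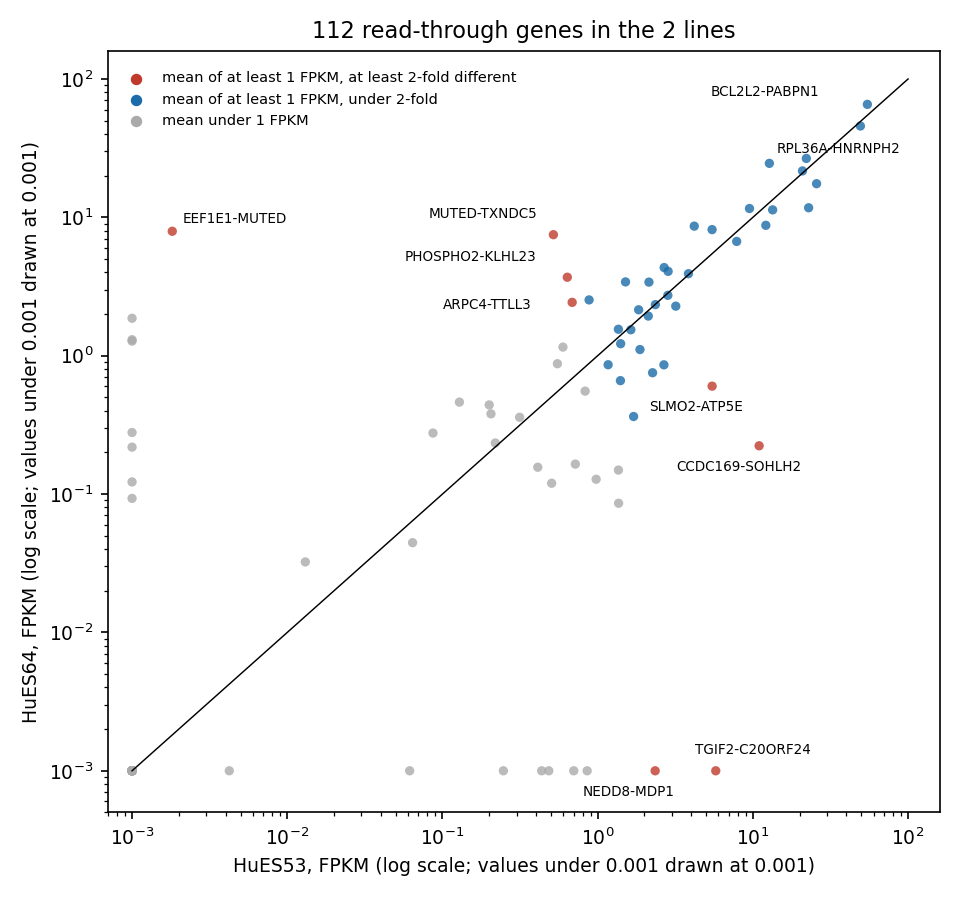
FPKM of the 112 read-through genes in HuES53 (horizontal axis) and HuES64 (vertical axis), both on log scales, with values under 0.001 drawn at 0.001 and the line of equal level in black. The 8 genes with a 2-fold or larger difference and a mean of 1 FPKM or more are red, and 2 of them, TGIF2-C20ORF24 and NEDD8-MDP1, lie on the lower edge because they were near zero in HuES64.

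CCDC169-SOHLH2 differed most in favour of HuES53. It joins a coiled-coil gene to SOHLH2, a transcription factor of germ cell development, on chromosome 13, 36742345 to 36871992. It reached 10.97 FPKM in HuES53 and 0.223 in HuES64, a log2 difference of 3.29. CCDC169 also was higher in HuES53, at 17.8 against 7.77 FPKM (1.10). SOHLH2 by itself was listed at 0.00194 FPKM in HuES53 and 0.839 in HuES64. The sum of the 3 genes was 28.8 and 8.83 FPKM (1.60), higher in HuES53 although SOHLH2 was lower there. Of the 8 genes at least 2-fold different, this was the only one whose locus sum was also 2-fold different. In HuES53 the read-through gene thus lay far above SOHLH2, and in HuES64 it lay below it.

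The read-through gene with the largest difference in favour of HuES64 was EEF1E1-MUTED on chromosome 6, and MUTED-TXNDC5 beside it was next. MUTED encodes a subunit of BLOC-1, a complex in the making of lysosome-related organelles. It lies between EEF1E1, of the multi-tRNA synthetase complex, and TXNDC5, a disulfide isomerase of the endoplasmic reticulum, and is a parent of 2 read-through genes. EEF1E1-MUTED, 8013800 to 8102828, reached 0.00182 FPKM in HuES53 and 7.93 in HuES64, a log2 difference of -3.16. MUTED-TXNDC5, 7881483 to 8064647, stood at 0.518 and 7.49 FPKM (-2.48). MUTED itself went the other way, from 9.29 FPKM in HuES53 to 0.377 in HuES64 (2.90). The outer parents hardly differed, with EEF1E1 at 76.6 and 64.9 FPKM and TXNDC5 at 125 and 97.8.

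All 5 genes of the locus together summed to 211 FPKM in HuES53 and 178 in HuES64. With both parents, the sum was also higher in HuES53 for EEF1E1-MUTED (0.23) and for MUTED-TXNDC5 (0.34). The 3 genes that hold MUTED exons alone summed to 9.81 FPKM in HuES53 and 15.8 in HuES64, a ratio of 1.61. In HuES53 almost all of this last sum was listed under MUTED, and in HuES64 under the read-through genes. With a pseudocount of 1 FPKM, these were the 2 of the 8 with a parent 2-fold different in the opposite direction, and they share that parent. With 0.1 or 0.5 FPKM 5 read-through genes had such a parent. Both annotated read-through transcripts lie entirely within exons of their parents, and differ from them by the splices shown above.

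The remaining 3 of the genes higher in HuES53 differed while no parent was 2-fold different. TGIF2-C20ORF24, which begins in the gene of a homeodomain repressor of TGF-beta signalling, stood at 5.77 FPKM in HuES53 and was near zero in HuES64, at 1.9e-06. TGIF2 stood at 22.0 and 18.0 FPKM and C20orf24 at 91.5 and 118. NEDD8-MDP1, of a ubiquitin-like protein and a phosphatase, stood at 2.35 FPKM and near zero, at 0.000113. NEDD8 stood at 367 and 440 FPKM and MDP1 at 13.4 and 20.1. SLMO2-ATP5E stood at 5.46 and 0.603 FPKM, a log2 difference of 2.01, while SLMO2 was level at 25.5 and 26.8 and ATP5E, a subunit of ATP synthase, stood at 383 and 512.

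The remaining 2 of the genes higher in HuES64 were of the same kind. PHOSPHO2-KLHL23 reached 0.637 FPKM in HuES53 and 3.69 in HuES64 (-1.52). Its parents moved in opposite directions, PHOSPHO2 from 2.89 to 5.51 FPKM and KLHL23 from 16.7 to 9.83, and the sum was 20.2 and 19.0 FPKM. ARPC4-TTLL3 stood at 0.685 and 2.43 FPKM (-1.03), while ARPC4, of the actin-nucleating Arp2/3 complex, was level at 125 and 125 FPKM and TTLL3, a tubulin-modifying ligase, at 0.712 and 0.781. With upper quartile scaling ARPC4-TTLL3 fell just under 2-fold (-0.98).

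**Figure D4:**
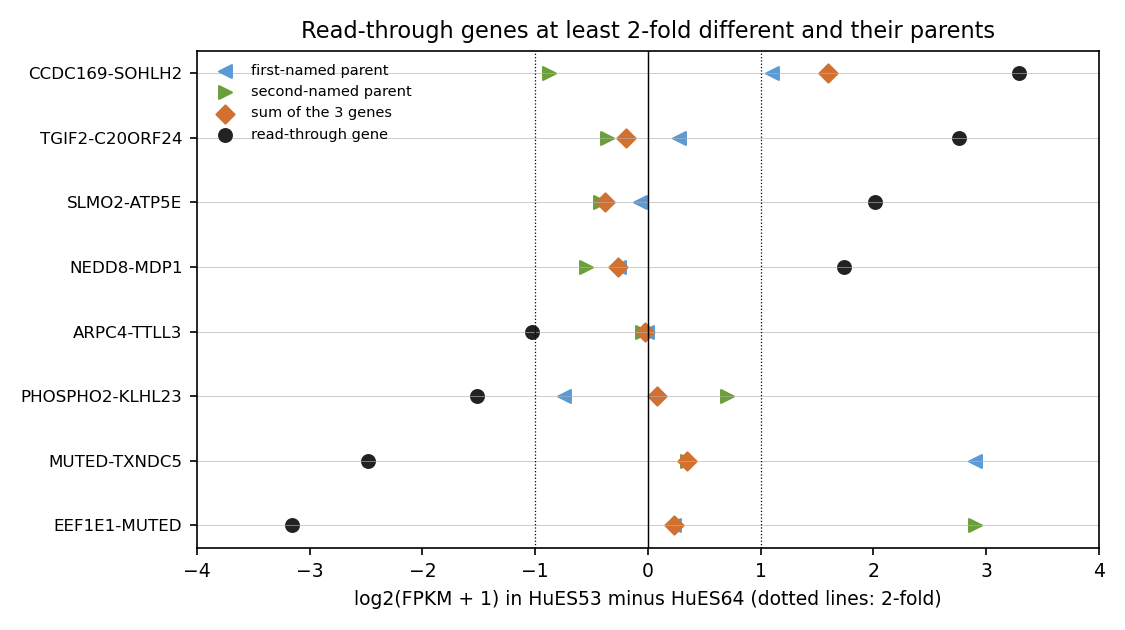
Difference in log2(FPKM + 1), HuES53 minus HuES64 (horizontal axis), of the 8 read-through genes at least 2-fold different (vertical axis), of their parents and of the sum of the 3 genes, with dotted lines at 2-fold. The sums lie within 0.4 of 0 in 7 rows, and at CCDC169-SOHLH2 the sum stands at 1.60.

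FPKM was also summed over each read-through gene and its parents. A sum that an abundant parent dominates moves little with the read-through gene, so the sums describe the locus and bear little on the read-through gene itself. Of 104 loci with a summed mean of at least 1 FPKM, 2 were at least 2-fold different, CCDC169-SOHLH2 and INS-IGF2. At INS-IGF2 the read-through gene was near zero in both lines and the difference was that of IGF2, a fetal growth factor (4.19 and 9.83 FPKM). Over the 41 read-through genes that passed the filter, the median size of the difference was 0.49. It was 0.26 for their first parents, 0.52 for their second parents and 0.26 for the sums. The parents' own direction gave no common pattern: 22 of the 41 differed the same way as the first parent and 18 the other way, and 18 and 23 for the second parent. In 1 of the 41 the first parent, IQCJ, was listed at 0 in both lines.

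Another 5 read-through genes were at least 2-fold different but did not reach a mean of 1 FPKM, and are named here after their values were seen. PRR5-ARHGAP8 stood at 1.86 FPKM in HuES64, TMX2-CTNND1 at 1.31 and ABHD14A-ACY1 at 1.28, and all 3 were near zero in HuES53. Of their parents, CTNND1, the adherens junction protein p120 catenin, stood at 91.6 and 62.7 FPKM in HuES53 and HuES64. ABHD14A stood at 4.03 and 5.02 FPKM and ACY1 at 37.1 and 48.0. The other parents of these genes are not described here. DYX1C1-CCPG1 (1.36 and 0.0858 FPKM) and ZNF670-ZNF695 (1.36 and 0.149 FPKM) were higher in HuES53.

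Genes for ending transcripts and for nonsense-mediated decay were expressed at similar levels in the lines. All 30 genes of cleavage, polyadenylation and termination had a mean of at least 1 FPKM, 19 being higher in HuES53 and 11 in HuES64, and none was 2-fold different. Their median difference was 0.15, against 0.03 for all genes, with a range from -0.62 to 0.60. SSU72, a phosphatase of the polymerase tail, stood at 126 and 177 FPKM, the phosphatase subunit PPP1CA at 135 and 156, and CSTF3, of the cleavage stimulation factor, at 69.0 and 68.2. PABPN1 is on this list and is also a parent of BCL2L2-PABPN1. All 15 genes of nonsense-mediated decay were likewise expressed, 9 being higher in HuES53 and 6 in HuES64, with a median of 0.14 and no member 2-fold different. A 2-fold difference was found for only 3.86% of all genes, so its absence from lists of 30 and 15 genes says little about them. EIF4A3 stood at 87.0 and 101 FPKM, MAGOH at 73.5 and 79.1, and PNRC2 at 57.9 and 49.7.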

How the data were processed

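The authors deposited a table of FPKM values with 25593 rows, each with a symbol, a locus and 1 value per line. TopHat2 2.0.4 and Cufflinks 2.0.2 were used in unstated roles, per the submitters' processing notes. Not given in the sources used here are the genome build, the annotation, the strand setting and how fragments were divided between genes that share exons. The deposited loci are not in GRCh38 coordinates. The BCL2L2-PABPN1 splice lies at 23308199 to 23322181 in GRCh38, outside the deposited locus of that gene at 23775971 to 23795394. The FPKM values carry no depth, and no interval was computed.

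Rows on chromosome Y (136) were left out and rows sharing a symbol (21 symbols) were summed. Loci were converted from a start at 0 to a start at 1. Read-through genes were found by symbol, with case ignored. Scripts used Python 3.11.15, pandas 2.3.3, numpy 2.4.6 and scipy 1.17.1, and the counting was tested on simulated data. Differences used a pseudocount of 1 FPKM, which makes folds smaller than plain ratios, and a mean of at least 1 FPKM. Exons, splices and coding sequences came from GENCODE release 29 and start sites from RefSeq, both on GRCh38 and matched by symbol, which may differ from the annotation the authors used. Named were the 12 highest read-through genes, those at least 2-fold different, up to 8 above both parents, those at 0 in a single line with 1 FPKM in the other (none), and from each list the 3 highest. Members and lists were chosen with earlier results of these data known.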

Additional observations from a re-analysis of the deposited data

How the results depend on the processing

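The counts of read-through genes at least 2-fold different changed with several settings. Against 4 higher in HuES53 and 4 in HuES64, the counts were 7 and 7 with a pseudocount of 0.1 FPKM, 7 and 5 with 0.5 FPKM, 10 and 5 with TPM scaling, 6 and 7 with no filter, and 1 and 0 for genes averaging 5 FPKM or more. The share of all genes 2-fold different also changed, from 3.86% to 7.18%, 5.44%, 6.66%, 2.32% and 3.31% in the same order. TPM scaling compared 47 read-through genes, no filter 112 and the 5 FPKM limit 14, against 41 otherwise. TPM scaling moved the median of all genes to 0.25 and that of read-through genes to 0.24. Read-through genes with a parent 2-fold different the other way numbered 5 with either smaller pseudocount and 0 for genes averaging 5 FPKM or more, and loci with a 2-fold different sum numbered 1 with upper quartile scaling. The cause was not tested in these cases. Among the read-through genes averaging 1 FPKM or more, the median log2 ratio to the lower parent was 0.0344 in HuES53, opposite in sign, and -0.0770 in HuES64, and 15 lay below both parents in both lines, since the filter keeps only the higher ones. With a pseudocount of 1 FPKM in the ratio it was -1.27 and -1.29. By construction, 59 and 59 reached 0.1 FPKM, and 15 and 15 reached 5 FPKM. Of 64 recomputed values, 43 stayed close to the value reported, where a count moving from 4 to 6 was still called close. Some of the 43 could not have changed. No read-through gene or parent had repeated rows, so taking the highest row of a symbol changed nothing. All 112 loci overlapped both parents, so leaving out others changed nothing. No paired analysis was possible because each line has a single library. The fragments behind a read-through level were not counted here, so its precision cannot be given.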

Other observations

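Outside the rule, 5 further hyphenated symbols had a transcript tagged as read-through in GENCODE. A tagged transcript does not make the level of its row that of a read-through RNA. RAD51L3-RFFL reached 1.41 FPKM in HuES53 and 2.30 in HuES64, DTX2P1-UPK3BP1-PMS2P11 at 3.11 and 4.05, TBC1D3P1-DHX40P1 at 1.50 and 1.55, HLA-F-AS1, by its name an antisense RNA, at 0.463 and 1.10, and ANKRD62P1-PARP4P3 was listed at 0 in both.

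Parents at least 2-fold different were 8 of the 172 averaging at least 1 FPKM. Besides RPL36A, MUTED, CCDC169 and IGF2, they were PLSCR3 (8.98 FPKM in HuES53 and 3.56 in HuES64), LY75, an endocytic receptor (2.01 and 0.272), CPT1B, the muscle form of a mitochondrial fatty acid importer (7.14 and 16.4), and the decoy receptor TNFRSF6B (0.135 and 2.09).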
